A study of Mus musculus with 8 samples.

Results

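The genes described here encode the Wnt signals of the kidney, their receptors and their inhibitors, with a few genes that report or restrain the signal. They were taken from the deposited expression table by symbol, namely every gene named Wnt, Fzd, Sfrp or Dkk with a number, together with Axin2, Lrp5, Lrp6, Lef1, Tcf7, Rnf43 and Znrf3. That gave 44 of the 34745 genes listed, comprising 19 Wnt ligands, 10 Frizzled receptors, 4 Sfrp genes, 4 Dkk genes and the 7 genes named singly. Of the 44 genes, 35 had enough counts to be tested. A further 6 (Wnt3a, Wnt8a, Wnt8b, Fzd9, Fzd10 and Dkk1) had a few counts but were not tested, and 3 (Wnt1, Wnt3 and Dkk4) had 0 counts in every library. Messenger RNA was sequenced from the kidneys of mice labelled WT at day 14, in 3 groups. They were uIRI with transplanted MSC (uIRI+MSC, n = 3), uIRI alone (n = 3) and sham (n = 2). The labels spell out neither abbreviation. In kidney research uIRI usually means unilateral ischaemia-reperfusion injury, and MSC usually means mesenchymal stem cells. Strain, sex, age, the source and dose of the cells and the moment of transplantation are not stated in the labels.

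Wnt proteins are secreted lipid-bearing ligands that bind a Frizzled receptor. When Lrp5 or Lrp6 joins the complex, beta-catenin escapes destruction, enters the nucleus and acts with DNA-binding factors of the Tcf and Lef family. Other Wnt proteins signal through Frizzled without beta-catenin and steer cell polarity and movement. Sfrp proteins resemble the ligand-binding part of Frizzled and can hold Wnt proteins outside the cell, Dkk1 and Dkk2 act on Lrp5 and Lrp6, and Rnf43 and Znrf3 remove Frizzled from the surface. In the developing kidney Wnt9b from the ureteric bud and Wnt4 in the condensing mesenchyme drive nephron formation, and in the adult kidney the pathway is largely quiet and is known to be switched on again after injury.

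Total counts per library were 11592986 to 22652718 in uIRI+MSC, 18426077 to 24300112 in uIRI and 14185677 to 14588506 in sham. Levels are given as FPKM, the deposited counts per length and depth, rescaled with the TMM factors of edgeR so that they can be set side by side between genes and libraries. Kidney markers were present throughout, with Slc34a1, the phosphate transporter of the proximal tubule, at 680 to 969 FPKM in uIRI+MSC, 142 to 489 in uIRI and 2360 to 2410 in sham. All 10 proximal tubule markers were lower in uIRI than in sham, while 8 of 8 fibroblast, 7 of 7 macrophage and 8 of 8 T cell markers were higher. Mitochondrial transcripts made up 6.07 to 11.3% of the counts in uIRI+MSC, 3.49 to 4.84% in uIRI and 14.2% in both sham libraries. In bulk tissue, fewer cells of a type and less RNA per cell cannot be told apart. No label states whether each library came from its own animal, and p-values therefore measure only the spread between these samples, which may be technical.

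In uIRI against sham, 15 of the 35 tested Wnt genes rose and 3 fell at an adjusted p of 0.05 by the quasi-likelihood test of edgeR. That is 42.9% higher and 8.57% lower, where 28.3% of all 16576 tested genes were called higher, 26.3% lower and 54.6% in either direction. The median log2 change of the 35 genes was 1.19, beside 0.06 over all tested genes. In 27 of the 35 no uIRI library overlapped the sham range, as in 77.1% of all tested genes. By role, 7 of 14 tested ligands rose, 2 of 8 Frizzled receptors rose and 2 fell, Lrp6 fell, 1 of 4 Sfrp genes and both tested Dkk genes rose, and Axin2, Lef1 and Tcf7 rose. Neither Rnf43 nor Znrf3 passed. No gene passed in uIRI+MSC against uIRI, and 10 rose and 1 fell in uIRI+MSC against sham, as described further on. Without the TMM factors the median of all genes in uIRI against sham shifts to 0.73, and then 28 of the 35 were called higher and 0 lower, where 54.6% and 12.0% of all tested genes were. In uIRI+MSC against sham that setting called 18 higher and 0 lower, beside 44.6% and 8.16%. Every change below is relative to the TMM scaling.

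**Figure D1:**
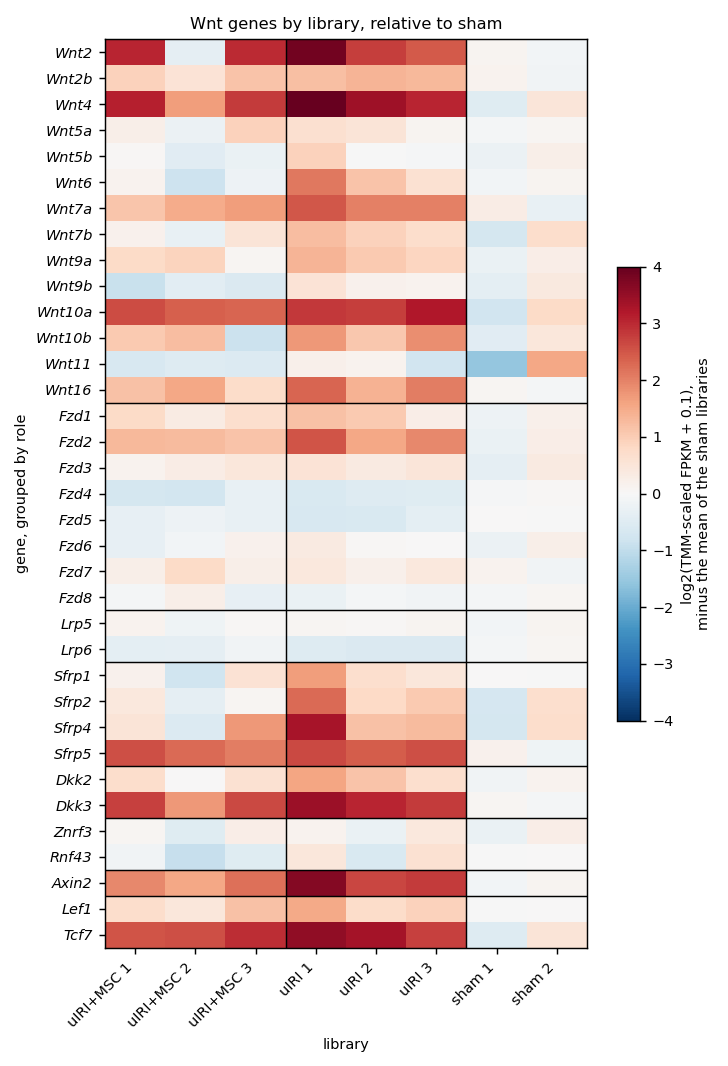
Each row is 1 of the 35 tested Wnt genes, grouped by role, and each column 1 library. Colour is log2 of the TMM-scaled FPKM plus 0.1, minus the mean of the 2 sham libraries. The Wnt4, Dkk3, Axin2 and Tcf7 rows are red in all 6 injured libraries, Wnt2 is not red in uIRI+MSC 2, and the Fzd4 and Lrp6 rows are faintly blue.

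Axin2 is a scaffold of the complex that destroys beta-catenin and is itself switched on by beta-catenin, so it is widely used as a reporter of the pathway. It stood at 1.31, 0.981 and 1.62 FPKM in uIRI+MSC 1 to 3, at 4.67, 2.30 and 2.5 in uIRI 1 to 3, and at 0.249 and 0.300 in sham 1 and 2. The 3 groups did not overlap with each other at any library, with uIRI highest and sham lowest. The log2 change in uIRI against sham was 3.52 ± 0.42 (SE, adjusted p = 0.00021 by edgeR), an 11.5-fold rise, and it ran from 3.13 to 3.71 when any 1 of the 8 libraries was left out. On GRCm38 Axin2 (ENSMUSG00000000142) spans chromosome 11, 108920349 to 108950783.

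Tcf7 and Lef1 encode DNA-binding partners of beta-catenin and are also expressed in T cells. Tcf7 had 3.26, 3.41 and 4.46 FPKM in uIRI+MSC, 6.79, 5.85 and 3.85 in uIRI, and 0.319 and 0.742 in sham. Every injured library stood above both sham libraries, and uIRI+MSC and uIRI overlapped. The gene rose by 3.36 ± 0.41 in uIRI against sham (SE, adjusted p = 0.000237 by edgeR), or by 4.12 without sham 2. Lef1 was much scarcer, at 0.240, 0.186 and 0.363 FPKM in uIRI+MSC, 0.492, 0.242 and 0.295 in uIRI, and 0.105 and 0.110 in sham. Again all injured libraries were above sham, and the rise was 1.67 ± 0.47 (SE, adjusted p = 0.0149 by edgeR). The Lef1 call was lost without sham 1 (1.66) and without sham 2 (1.72). Among the exonic bases of Lef1, 13.7% lie in exons of Gm43352 on the opposite strand, and with the strand setting of the counting not stated, reads in that stretch cannot be assigned with certainty. The summed level of the 8 T cell markers was 27.1 to 41.5 FPKM in uIRI+MSC, 40.1 to 56.1 in uIRI and 5.52 to 6.87 in sham. The part of T cells in the Tcf7 and Lef1 values was not tested.

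The stretches just before the transcript starts of 4 genes that rose in uIRI against sham are shown because they are where Tcf and Lef factors could meet DNA close to the start. RefSeq windows on GRCm38.p6 were found for 29 of the 44 genes. The letters searched were CTTTGAA as well as CTTTGAT, together with CTTTGTA and further CTTTGTT, on both strands and allowing overlaps, in the 250 bases before each start. Each sequence is given 5′ to 3′ on the strand of its gene, and capitals mark a match.
Axin2, chr11:108920099-108920348, plus strand: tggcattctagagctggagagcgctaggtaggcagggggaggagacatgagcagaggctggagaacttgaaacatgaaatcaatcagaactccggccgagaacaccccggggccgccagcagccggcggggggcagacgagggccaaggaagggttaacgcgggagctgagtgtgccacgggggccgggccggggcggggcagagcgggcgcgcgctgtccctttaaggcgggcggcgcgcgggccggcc
Sfrp5, chr19:42202253-42202502, minus strand: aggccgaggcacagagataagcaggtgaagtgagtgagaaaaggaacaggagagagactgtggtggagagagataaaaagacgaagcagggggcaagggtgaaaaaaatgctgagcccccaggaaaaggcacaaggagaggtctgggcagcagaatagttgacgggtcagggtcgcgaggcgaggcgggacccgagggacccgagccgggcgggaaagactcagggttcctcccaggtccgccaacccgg
Dkk2, chr3:132085042-132085291, plus strand: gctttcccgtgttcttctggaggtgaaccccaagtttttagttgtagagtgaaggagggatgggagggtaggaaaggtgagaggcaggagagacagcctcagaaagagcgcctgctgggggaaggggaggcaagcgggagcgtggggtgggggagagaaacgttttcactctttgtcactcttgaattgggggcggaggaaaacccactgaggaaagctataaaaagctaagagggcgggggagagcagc
Lef1, internal start, chr3:131156044-131156293, plus strand: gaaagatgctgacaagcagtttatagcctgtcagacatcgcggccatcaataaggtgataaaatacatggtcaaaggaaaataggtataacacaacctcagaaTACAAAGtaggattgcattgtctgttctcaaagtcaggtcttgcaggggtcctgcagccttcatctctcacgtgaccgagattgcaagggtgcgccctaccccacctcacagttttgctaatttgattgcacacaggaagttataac
The windows of Axin2, Sfrp5 and Dkk2 held none of these letters, and that of the internal Lef1 start held TACAAAG, the reverse complement of CTTTGTA, beginning 147 bases before the start. The other Lef1 windows held no match, and bases outside the windows were not searched for any gene. Over the Wnt genes 5 of 37 windows had a match, belonging to 5 genes (Dkk1, Fzd7, Lef1, Wnt5b and Wnt11), beside 4874 of 32851 windows of all genes (14.8%). Of the 12 genes with a window that rose in uIRI against sham, 1 (Lef1) had a match.

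Wnt4 was the ligand with the highest mean level in both injured groups and the sixth in sham. It had 6.75, 2.42 and 5.41 FPKM in uIRI+MSC, 14.1, 8.24 and 6.43 in uIRI, and 0.463 and 1.01 in sham. All injured libraries were above both sham libraries, uIRI 1 was the highest, and uIRI+MSC 1 lay within the range of uIRI. The rise in uIRI against sham was 3.70 ± 0.59 on the log2 scale (SE, adjusted p = 0.000899 by edgeR), and 4.39 without sham 2. Wnt4 (ENSMUSG00000036856) spans chromosome 4, 137277489 to 137299726 on GRCm38.

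Wnt10a, a beta-catenin ligand of skin appendages and teeth, had 2.33, 2.01 and 1.92 FPKM in uIRI+MSC, 2.74, 2.63 and 3.58 in uIRI, and 0.137 and 0.583 in sham. Here the uIRI libraries lay close together, uIRI+MSC lay just below them and sham far below both. The log2 change was 3.03 ± 0.47 (SE, adjusted p = 0.000774 by edgeR). It was 2.37 without sham 1 and 4.45 without sham 2. Wnt2, a ligand of lung mesenchyme and endothelium, stood at 3.01, 0.190 and 2.87 FPKM in uIRI+MSC, at 5.26, 2.46 and 1.96 in uIRI, and at 0.302 and 0.245 in sham. One library departed from its group, since uIRI+MSC 2 was at the sham level with 6 counts. Wnt2 rose by 3.55 ± 1.09 in uIRI against sham (SE, adjusted p = 0.0225 by edgeR), a call that was lost without sham 1 (3.73), without sham 2 (3.43) and with limma-voom (3.38).

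Wnt16, a ligand known from bone and joint, had 0.489, 0.668 and 0.332 FPKM in uIRI+MSC, 1.20, 0.593 and 0.991 in uIRI, and 0.175 and 0.149 in sham. It rose by 2.52 ± 0.46 (SE, adjusted p = 0.00198 by edgeR), with every injured library above sham. Wnt9a, which takes part in joint formation, had 0.551, 0.605 and 0.303 FPKM in uIRI+MSC, 0.881, 0.678 and 0.590 in uIRI, and 0.213 and 0.361 in sham. Its uIRI libraries were above both sham libraries while uIRI+MSC overlapped both groups, and its rise of 1.32 ± 0.40 (SE, adjusted p = 0.0219 by edgeR) was lost without uIRI 1 (1.14) or without sham 1 (1.01).

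The other ligands that rose were close to absent from sham. Wnt7a, a ligand of limb and nervous system patterning, had 0.167, 0.247 and 0.290 FPKM in uIRI+MSC, 0.582, 0.400 and 0.401 in uIRI, and 0.0516 and 0 in sham, where only 2 counts were found. The ratio of uIRI to sham was 18.7, with an exact 95% counting interval of 5.07 to 156 and an adjusted p of 0.00213 by edgeR. For Wnt2b the levels were 0.109, 0.0618 and 0.145 FPKM in uIRI+MSC, 0.153, 0.182 and 0.173 in uIRI, and 0.0210 and 0 in sham, from 1 count. Its ratio was 16.5 (2.85 to 662, adjusted p = 0.00526 by edgeR). Such intervals cover counting error only. Both genes were at levels far below those of Wnt4 even in uIRI.

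The remaining 7 tested ligands did not pass in uIRI against sham. Wnt7b, which the collecting duct uses in forming the medulla, had 3.56, 2.54 and 4.61 FPKM in uIRI+MSC, 7.58, 6.12 and 5.22 in uIRI, and 1.89 and 5.24 in sham. Sham 2 lay within the range of uIRI and sham 1 well below it, and the log2 difference was 0.82 ± 0.41 (SE, adjusted p = 0.119 by edgeR). Leaving out sham 2 brought it to 1.76 and past the threshold. Wnt9b had 0.834, 1.19 and 1.06 FPKM in uIRI+MSC, 2.41, 1.86 and 1.78 in uIRI, and 1.20 and 2.18 in sham. Its uIRI and sham libraries overlapped, with a difference of 0.25 ± 0.30 (SE, adjusted p = 0.5 by edgeR), while all uIRI+MSC libraries were lower than every other.

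Wnt5a and Wnt5b act mostly without beta-catenin. Wnt5a had 1.79, 1.26 and 2.97 FPKM in uIRI+MSC, 2.40, 2.19 and 1.65 in uIRI, and 1.42 and 1.61 in sham, and Wnt5b had 0.980, 0.659 and 0.760 in uIRI+MSC, 1.86, 0.930 and 0.910 in uIRI, and 0.775 and 1.13 in sham. Their log2 differences in uIRI against sham were 0.46 ± 0.33 and 0.38 ± 0.38 (SE). Wnt11, a ligand of the ureteric bud tips, ran from 0.285 to 0.314 FPKM in uIRI+MSC and from 0.250 to 0.581 in uIRI, but stood at 0.103 in sham 1 and 1.66 in sham 2. The sham libraries thus lay on either side of all injured ones. The Wnt11 difference of -0.93 ± 0.79 (SE, adjusted p = 0.348 by edgeR) became 2.18 without sham 2 and -1.81 without sham 1, past the threshold both times, so no direction was given by these data. Wnt6 and Wnt10b were at or below 0.664 and 0.552 FPKM in every library. Their differences in uIRI against sham were 2.24 ± 0.95 and 2.25 ± 1.05 (SE, adjusted p = 0.0738 and 0.0995 by edgeR). Wnt6 passed without uIRI+MSC 2 (2.25) and without uIRI 3 (2.57), and Wnt10b passed without uIRI+MSC 3 (2.27) and in a fit of only the uIRI and sham libraries (2.28).

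Sham 2 was the higher sham library in 26 of the 35 tested Wnt genes (74.3%), beside 47.0% of all tested genes. Urothelial markers differed between the sham libraries in the same direction, with Upk3a, a uroplakin of the urinary tract lining, at 0.264 FPKM in sham 1 and 13.1 in sham 2. Upk3a was at 0.0378, 0 and 4.02 FPKM in uIRI+MSC and at 19.5, 3.51 and 7.28 in uIRI. Krt5 was at 0.0382, 0.0653 and 6.52 FPKM in uIRI+MSC, at 14.9, 3.99 and 8.17 in uIRI, and at 0 and 5.63 in sham. The list of 7 urothelial markers summed to 20.8 to 41.3 FPKM in uIRI+MSC, 28.1 to 55.2 in uIRI, and 1.97 and 46.4 in sham 1 and 2, with none at 0 in every library. Krt20 alone had 19.5, 21.0 and 22.2 FPKM in uIRI+MSC, 5.36, 16.5 and 10.5 in uIRI, and 0 and 0.191 in sham. It thus made up nearly all of the sum in uIRI+MSC 1 and 2, where Upk3a and Krt5 were near 0. Of the 7, Krt20 rose in uIRI against sham and the rest did not pass. The part of urothelium in the Wnt7b, Wnt11 and other Wnt values was not tested.

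Summed over the ligands, levels were 21.3, 12.5 and 21.0 FPKM in uIRI+MSC, 41.0, 27.4 and 24.7 in uIRI, and 6.95 and 14.5 in sham. All uIRI libraries were above all others, and uIRI+MSC 2 fell between the sham libraries. The make-up of these sums differed too. Wnt4 supplied 31.7, 19.4 and 25.7% of the ligand transcripts per length in uIRI+MSC, 34.4, 30.0 and 26.0% in uIRI, and 6.67 and 6.96% in sham. Wnt7b led in sham, with 27.3 and 36.1%, and Wnt9b supplied 17.3 and 15.0% there, behind Wnt5a with 20.4% in sham 1. In uIRI+MSC and uIRI, Wnt9b supplied 3.92 to 9.50% and 5.87 to 7.21%. With 2 sham libraries these shares were described and not tested.

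**Figure D2:**
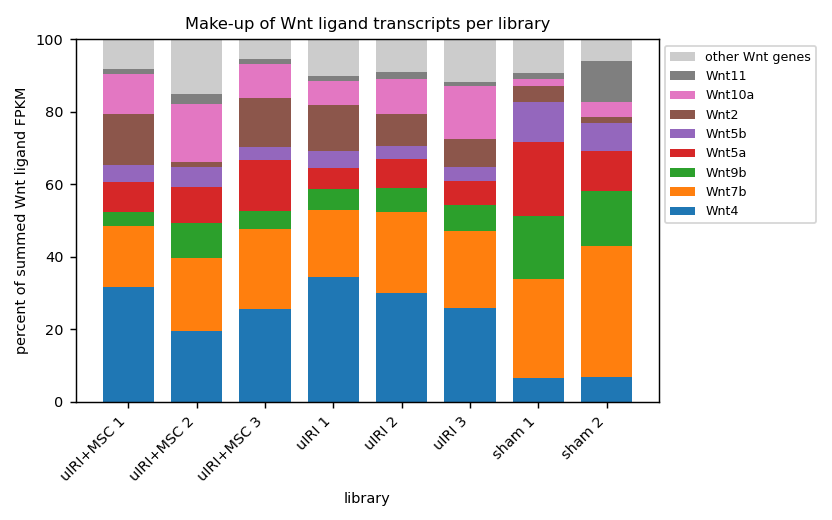
Stacked bars give, for each of the 8 libraries, the percent of the summed Wnt ligand level (TMM-scaled FPKM) that each Wnt gene supplied. The Wnt4 segment takes 19.4 to 34.4% of the bar in the 6 injured libraries and 6.67 and 6.96% in sham, and the Wnt11 segment is widest in sham 2, at 11.4%.

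Among the Frizzled receptors, Fzd1 was the most abundant in every group, and Fzd1 and Fzd2 rose in uIRI against sham while Fzd4 and Fzd5 fell. Fzd2, a receptor of mesenchymal cells, had 3.93, 3.88 and 3.51 FPKM in uIRI+MSC, 9.29, 4.75 and 6.20 in uIRI, and 1.27 and 1.89 in sham. The 3 groups did not overlap, with uIRI highest. Fzd2 rose by 2.09 ± 0.32 (SE, adjusted p = 0.000705 by edgeR). Fzd1 stood at 48.4, 35.6 and 45.3 FPKM in uIRI+MSC, at 63.7, 58.4 and 34.2 in uIRI, and at 24.3 and 32.9 in sham. Its lowest uIRI library was only just above the higher sham library. The rise of 0.87 ± 0.28 (SE, adjusted p = 0.0288 by edgeR) was lost without uIRI 1 (0.70), without uIRI 2 (0.78) and without sham 1 (0.68). Fzd1 (ENSMUSG00000044674) spans chromosome 5, 4753839 to 4758035.

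Fzd4, the receptor for Norrin in blood vessels, had 14.7, 14.2 and 19.5 FPKM in uIRI+MSC, 15.5, 16.5 and 16.9 in uIRI, and 22.9 and 24.8 in sham. Fzd5 had 2.42, 2.66 and 2.51 FPKM in uIRI+MSC, 1.96, 2.00 and 2.32 in uIRI, and 3.13 and 3.06 in sham. The co-receptor gene Lrp6 had 12.2, 12.6 and 14.5 FPKM in uIRI+MSC, 11.2, 10.7 and 10.7 in uIRI, and 15.3 and 16.9 in sham. In each of these genes every injured library was below both sham libraries, and by a small margin compared with the rises above. The log2 changes in uIRI against sham were -0.55 ± 0.16 for Fzd4, -0.56 ± 0.13 for Fzd5 and -0.57 ± 0.13 for Lrp6 (SE, adjusted p = 0.0159, 0.00695 and 0.00633 by edgeR), and all turned to 0.11, 0.10 and 0.09 with library size alone. The falls also missed the threshold without sham 1 for Fzd4 (-0.59) and Fzd5 (-0.53), and without sham 2 for Fzd4 (-0.47) and Lrp6 (-0.47). Of the exonic bases of Fzd5, 17.8% lie in exons of Gm38058 on the opposite strand, so part of its reads cannot be assigned with certainty. The summed level of the 6 endothelial markers was 60.1 to 78.1 FPKM in uIRI+MSC, 78.4 to 82.6 in uIRI and 63.2 to 72.4 in sham, and that of the 10 proximal tubule markers was 1110 to 1470 in uIRI+MSC, 213 to 744 in uIRI and 4080 to 4380 in sham. The part of these cells in the receptor values was not tested.

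The other receptor genes did not pass in any comparison. Fzd6 had 7.86, 9.22 and 11.1 FPKM in uIRI+MSC, 12.8, 10.1 and 9.98 in uIRI, and 8.38 and 11.6 in sham, Fzd7 had 9.37, 13.6 and 9.28, 10.8, 9.18 and 10.6, and 8.79 and 7.19 in the same order, and Fzd8 had 7.17, 8.91 and 6.07, 6.26, 7.26 and 6.84, and 7.26 and 8.01. Lrp5, the partner of Lrp6, had 7.76, 6.19 and 7.22 FPKM in uIRI+MSC, 7.45, 7.23 and 7.70 in uIRI, and 6.58 and 7.58 in sham. Log2 differences in uIRI against sham were 0.14 ± 0.21 for Fzd6, 0.35 ± 0.20 for Fzd7, -0.17 ± 0.18 for Fzd8 and 0.08 ± 0.14 for Lrp5 (SE), none of them past the threshold. Fzd3 stayed below 1 FPKM in every library, at 0.47 ± 0.30. Of the summed Frizzled level, Fzd1 supplied 40.0 to 51.0% in uIRI+MSC, 38.8 to 53.4% in uIRI and 31.8 and 36.4% in sham, and Fzd4 supplied 15.5 to 19.8% in uIRI+MSC, 12.7 to 19.2% in uIRI, and 29.9 and 27.5% in sham. Fzd10 was not tested, with 21 counts in uIRI+MSC, 71 in uIRI and 2 in sham, and 50 of the 71 were in uIRI 1. The ratio of uIRI to sham was 9.60, with an exact 95% counting interval of 2.56 to 80.8.

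The secreted antagonists included the most abundant of all these transcripts. Sfrp1, a ligand-binding antagonist, had 53.0, 27.0 and 70.3 FPKM in uIRI+MSC, 151, 75.1 and 64.7 in uIRI, and 48.2 and 46.6 in sham. The uIRI libraries were all above sham, with uIRI 1 far above the other two, and uIRI+MSC lay on both sides of sham. The log2 difference in uIRI against sham was 1.03 ± 0.45 and did not pass (SE, adjusted p = 0.0829 by edgeR). It was 0.56 without uIRI 1. Sfrp1 supplied 81.9 to 94.0% of the summed Sfrp level in each library, and it spans chromosome 8, 23411502 to 23449632 (ENSMUSG00000031548).

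Sfrp5, an antagonist known from fat and gut, was the member of its family that passed. It had 2.87, 2.26 and 1.94 FPKM in uIRI+MSC, 3.0, 2.55 and 2.83 in uIRI, and 0.460 and 0.339 in sham. The injured groups overlapped with each other and stood far above sham, a rise of 2.80 ± 0.33 in uIRI against sham (SE, adjusted p = 0.000198 by edgeR) that ran from 2.61 to 3.05 when any 1 library was left out. Fat markers summed to 0 to 3.64 FPKM in uIRI+MSC, 0.204 to 0.803 in uIRI and 0 to 0.316 in sham, and Lep was at 0 in every library.

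Sfrp2, which fibroblasts secrete, had 3.77, 2.15 and 2.92 FPKM in uIRI+MSC, 13.8, 4.85 and 5.87 in uIRI, and 1.69 and 4.47 in sham. Sfrp4, an antagonist of bone and connective tissue, had 2.29, 1.06 and 5.45 FPKM in uIRI+MSC, 16.5, 3.72 and 3.94 in uIRI, and 0.941 and 2.62 in sham. In both genes uIRI 1 was well above every other library and all uIRI libraries were above sham. Their differences of 1.41 ± 0.55 and 2.17 ± 0.92 in uIRI against sham missed the threshold (SE, adjusted p = 0.0576 and 0.0729 by edgeR), and were 0.80 and 1.1 without uIRI 1. Sfrp2 passed without uIRI 2 (1.68) and without sham 2 (2.30), and Sfrp1 passed without uIRI+MSC 2 (1.03). DESeq2, which called 56.5% of all genes, called Sfrp1, Sfrp2 and Sfrp4 higher (1.03, 1.40 and 2.17). Opposite-strand exons of Gm26771 cover 16.1% of the exonic bases of Sfrp2.

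Dkk3, a secreted glycoprotein of the Dkk family that is studied as a tubular stress marker in kidney disease and whose action on the pathway is less settled, had the smallest p of all these genes. It had 31.6, 15.7 and 29.3 FPKM in uIRI+MSC, 50.2, 38.7 and 32.5 in uIRI, and 4.89 and 4.36 in sham. The 3 groups did not overlap, and the sham libraries lay close together. Dkk3 (ENSMUSG00000030772, chromosome 7, 112116019 to 112159057) rose by 3.13 ± 0.34 in uIRI against sham (SE, adjusted p = 0.000153 by edgeR). Dkk2, which binds Lrp6, had 13.2, 8.22 and 12.4 FPKM in uIRI+MSC, 24.4, 17.9 and 12.9 in uIRI, and 7.29 and 8.87 in sham. It rose by 1.19 ± 0.30 (SE, adjusted p = 0.00919 by edgeR), with uIRI above sham throughout and uIRI+MSC overlapping both, and the call was lost without sham 1 (1.07). Dkk3 was the larger of the pair in every injured library and Dkk2 in both sham libraries, and Dkk3 made up 65.5 to 70.6% of the Dkk level in uIRI+MSC, 67.2 to 71.6% in uIRI, and 40.0 and 32.9% in sham. Dkk1, the best known inhibitor of Lrp6, had at most 6 counts in any library and was not tested.

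**Figure D3:**
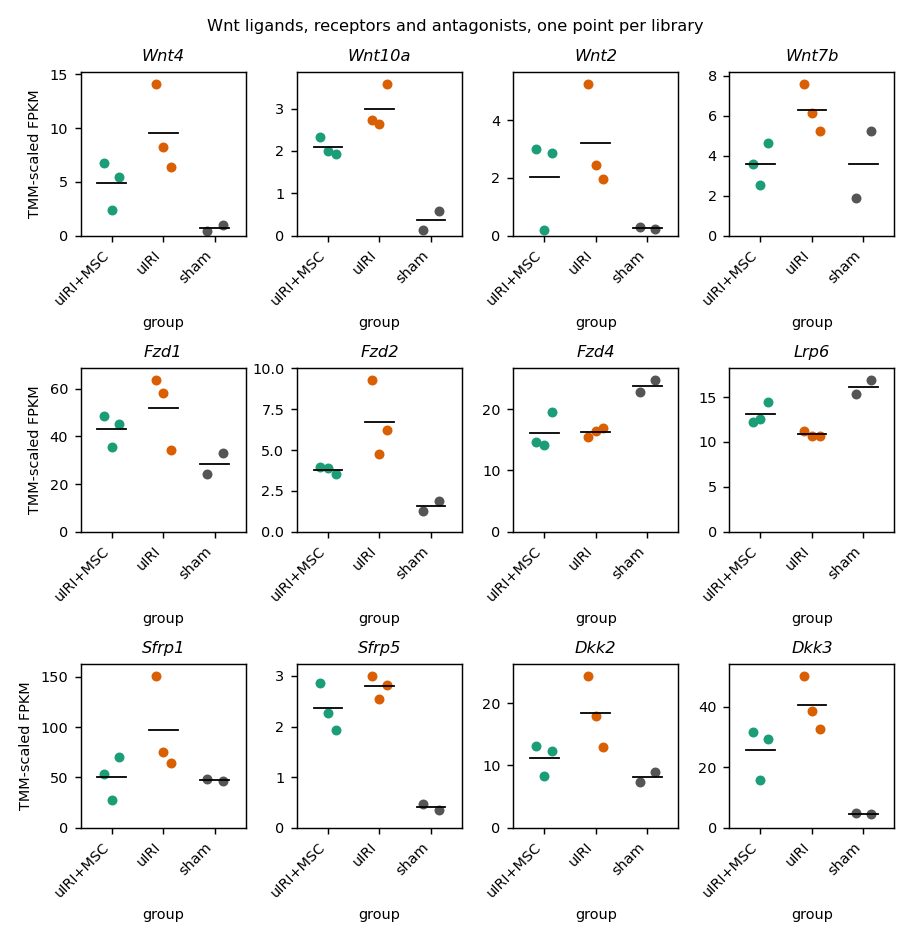
Points are the TMM-scaled FPKM of single libraries, bars their mean, for 4 ligands (top), 4 receptors (middle) and 4 antagonists (bottom) in uIRI+MSC, uIRI and sham. Dkk3, Sfrp5, Wnt4 and Wnt10a show all injured libraries above sham, Fzd4 and Lrp6 show them below, and Sfrp1 shows uIRI 1 at 151 FPKM, above every other library.

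Some of these genes, such as Fzd2 and Sfrp2, are known from mesenchymal cells or fibroblasts, so fibroblast and myofibroblast markers are given here. The 8 markers summed to 286 to 515 FPKM in uIRI+MSC, 515 to 1200 in uIRI and 73.0 to 119 in sham, with the highest value in uIRI 1 and the lowest of the injured libraries in uIRI+MSC 2. All 8 passed as higher in uIRI against sham and 5 did in uIRI+MSC against sham, and none was at 0 in every library. Of the 35 tested Wnt genes, 26 (74.3%) were highest in uIRI 1 among the uIRI libraries, beside 33.5% of all tested genes. The part of fibroblasts in the Wnt values was not tested.

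The receptor-removing ligases did not pass in any comparison. Znrf3 had 1.97, 1.3 and 2.24 FPKM in uIRI+MSC, 2.07, 1.54 and 2.53 in uIRI, and 1.54 and 2.23 in sham, and its libraries overlapped between all groups. Rnf43 ran from 0.356 to 0.689 FPKM in uIRI+MSC, from 0.474 to 1.24 in uIRI and from 0.756 to 0.783 in sham. Their log2 differences in uIRI against sham were 0.12 ± 0.29 and 0.28 ± 0.42 (SE, adjusted p = 0.757 and 0.594 by edgeR). Both genes are themselves known targets of beta-catenin in the gut.

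Around this family, 86 further pathway genes were listed by role, and 82 were tested. In uIRI against sham 35 rose (42.7%) and 12 fell (14.6%), with a median of 0.31, where 28.3% of all tested genes were called higher and 26.3% lower, with a median of 0.06. The counts of each role that follow stand against those same shares. Of 16 genes of Dishevelled and the destruction complex 3 rose (18.8%) and 1 fell (6.25%), both below the shares over all tested genes, with a median of 0.07, and Ctnnb1, which encodes beta-catenin, had a difference of -0.03 ± 0.17 (SE). In that set Csnk1e, a casein kinase that phosphorylates Dishevelled, rose by 1.69. Ctnnb1 was chosen after its values were seen, at 60.5, 64.1 and 49.6 FPKM in uIRI+MSC, 59.2, 71.2 and 60.2 in uIRI, and 62.8 and 66.9 in sham.

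Genes for the release and removal of ligands went both ways, with 2 of 7 higher and 4 lower. Notum, the enzyme that strips the lipid from Wnt proteins and is itself a feedback target, had 2.99, 2.70 and 2.29 FPKM in uIRI+MSC, 0.635, 1.25 and 1.15 in uIRI, and 13.2 and 9.28 in sham. It fell by 3.48 on the log2 scale in uIRI against sham (adjusted p = 5.94e-05 by edgeR), opposite to Axin2, with no overlap between any of the groups. Trabd2b, which cuts Wnt proteins, and Gpc4, a glypican, fell by 1.56 and 1.38, while the glypican gene Gpc3 rose by 2.25. Of the R-spondins, which protect Frizzled from Rnf43 and Znrf3, and their Lgr receptors, 2 of 5 rose and 1 fell. Rspo3 rose by 4.02, Rspo1 had a ratio of 9.20 (exact 95% counting interval 3.06 to 45.3), and Lgr4 fell by 1.15. With 0 and 6 counts in sham 1 and 2, the Rspo3 rise ran from 3.09 to 9.53 when any 1 library was left out.

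Of 10 other antagonists 3 rose and 1 fell. Sostdc1, a distal tubule antagonist of Wnt and BMP signals, fell by 1.92, Tpbg rose by 2.41 and Apcdd1 by 2.99, and Dkkl1, with 0 counts in sham, was at least 4.24-fold higher against a floor of 3 counts over the group. The Apcdd1 call was lost with limma-voom (2.94), without sham 1 (2.56) and without sham 2 (3.69). Among 15 co-receptor and polarity genes 8 rose (53.3%) and 2 fell (13.3%), where 54.6% of all tested genes were called in either direction. Those with the smallest p were Vangl2 (2.08), Prickle2 (1.58) and Ptk7 (2.53), all of the planar polarity pathway, and Daam2 (1.27), an actin regulator. Of 12 nuclear partners of beta-catenin 5 rose and 1 fell. Ctnnbip1, which blocks beta-catenin from binding Tcf factors, fell by 0.98, and the coactivator genes Bcl9, Pygo1 and Pygo2 rose by 0.86, 3.93 and 0.98. With 1 and 10 counts in sham 1 and 2, the Pygo1 rise ran from 3.12 to 6.29 when any 1 library was left out. Without sham 1 the calls of Rspo1, Daam2 (1.13) and Pygo2 (0.81) were lost, and with library size alone that of Ctnnbip1 (-0.31).

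Genes often used as beta-catenin targets had 12 of 17 higher (70.6%) and 2 lower (11.8%), with a median of 2.40, beside 28.3% higher and 26.3% lower over all tested genes. Cd44, Sox9 and Fn1 rose by 5.11, 4.42 and 4.88. They encode a hyaluronan receptor, a transcription factor and the matrix protein fibronectin. Sp5, a transcription factor that responds directly to beta-catenin, went the other way, with 4.75, 4.87 and 3.56 FPKM in uIRI+MSC, 2.53, 3.2 and 2.42 in uIRI, and 13.6 and 13.0 in sham, a fall of 2.29 (adjusted p = 6.7e-05 by edgeR). The other lower gene was Ccnd1, named here after its values were seen. Its highest injured library, uIRI 3, had 38.7 FPKM, beside 56.9 and 69.4 in sham 1 and 2. Nkd1, a feedback inhibitor chosen after its values were seen, rose by 3.23 (adjusted p = 0.000781 by edgeR). Nkd1 had 5.00, 2.66 and 5.56 FPKM in uIRI+MSC, 13.4, 8.83 and 5.43 in uIRI, and 0.719 and 1.24 in sham.

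**Figure D4:**
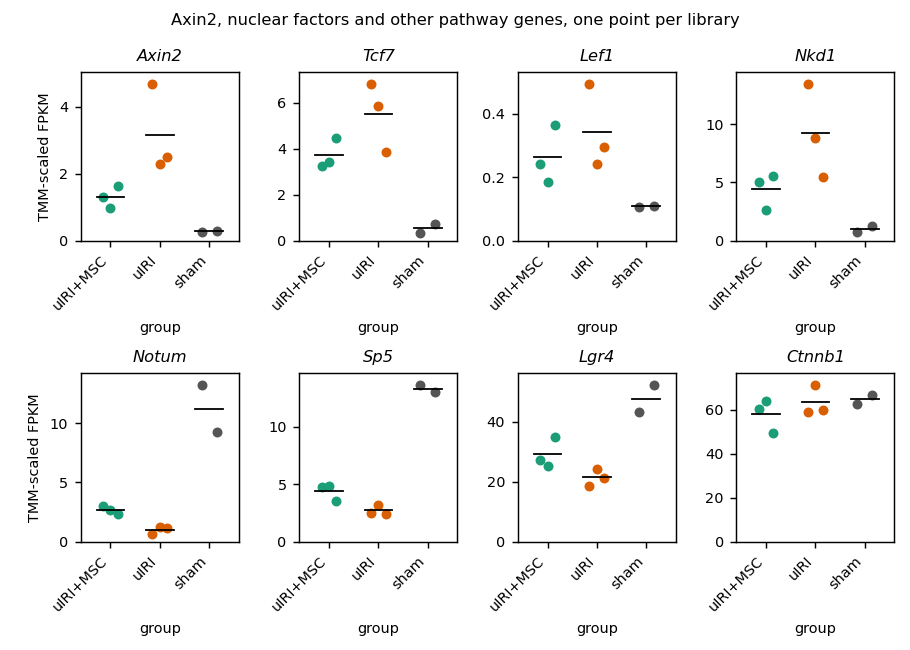
Points are the TMM-scaled FPKM of single libraries and bars their mean in uIRI+MSC, uIRI and sham, for Axin2, Tcf7, Lef1 and Nkd1 (top) and Notum, Sp5, Lgr4 and Ctnnb1 (bottom). In the top row every injured library lies above sham, whereas for Notum, Sp5 and Lgr4 every injured library lies below sham, and Ctnnb1 overlaps in all groups.

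The comparison of uIRI+MSC against uIRI sets injured kidney with transplanted cells beside injured kidney without them. In it 0 of the 35 genes passed the threshold with edgeR, as did 0 of all 16576 tested genes (0.0%). At an unadjusted p under 0.05, 12 of the 35 (34.3%) were lower and 0 were higher, where 9.34% of all tested genes were lower and 11.3% higher at that level. The fitted difference was below 0 in 31 of 35 (88.6%), beside 50.9% of all tested genes, and the median was -0.63, beside -0.01. All 14 ligands, all 4 Sfrp genes and both Dkk genes were among the 31, and the exceptions were Fzd5, Fzd7, Fzd8 and Lrp6. In 12 genes the uIRI+MSC and uIRI libraries did not overlap (26.9% of all tested genes). These are not the same 12, and they include Fzd5 and Lrp6, in which uIRI+MSC was higher. The comparison uses the same uIRI libraries as that with sham. Without uIRI 1, in which most of these genes were highest, 29 of 34 differences were below 0 with a median of -0.40, and 3 genes had an unadjusted p under 0.05 (5.04% of all tested genes lower at that level). Without uIRI+MSC 2, 6 did (6.66%).

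Axin2 had the smallest unadjusted p of the 35, with a difference of -1.28 ± 0.30 (SE, unadjusted p = 0.00247, adjusted p = 0.111 by edgeR), its highest uIRI+MSC library at 1.62 FPKM and its lowest uIRI library at 2.30. DESeq2, which called 4 of the 35 and 1364 of 15281 genes (8.93%, with 3.73% lower), gave Axin2 -1.3 at adjusted p = 0.00412, and across the alternatives its adjusted p ran up to 0.234. The other genes called by DESeq2 were Wnt9b (-1.0, adjusted p = 0.0155), Sfrp2 (-1.49, 0.0241) and Fzd2 (-0.86, 0.0351), with the highest adjusted p over the alternatives at 0.309, 0.43 and 0.374. By limma-voom 0 of the 35 passed. With edgeR the difference was -0.98 ± 0.27 for Wnt9b, -1.46 ± 0.47 for Sfrp2 and -0.84 ± 0.25 for Fzd2 (SE). In each of the 3 genes all uIRI+MSC libraries were below all uIRI libraries.

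The other genes with an unadjusted p under 0.05 had adjusted p of 0.129 to 0.241 by edgeR. Wnt6 showed the largest difference, -2.69 ± 0.78 (SE), from 9 counts in uIRI+MSC and 94 in uIRI. Differences of Wnt4, Wnt7a, Wnt7b and Wnt16 were -0.98, -1.0, -0.82 and -0.90, and those of Dkk2, Dkk3 and Sfrp1 were -0.71, -0.66 and -0.95. In Wnt7a, Wnt7b and Dkk3 the groups did not overlap, and in Wnt4, Wnt16, Dkk2 and Sfrp1 they did. Among the 82 other pathway genes 0 passed, and 7 were higher and 11 lower at an unadjusted p under 0.05. The 8 fibroblast markers summed to 286 to 515 FPKM in uIRI+MSC and 515 to 1200 in uIRI, and the 7 macrophage markers to 512 to 599 in uIRI+MSC and 809 to 1260 in uIRI, with none at 0 throughout. None of those markers passed in uIRI+MSC against uIRI, as no tested gene did, though the difference of each was negative. The unadjusted p by edgeR ran from 9.63e-05 (Cx3cr1) to 0.19 (Mrc1) in the macrophage markers. In the fibroblast markers it ran from 0.0221 (Col3a1) to 0.147 (Postn). The part of both cell types in the Wnt values was not tested.

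**Figure D5:**
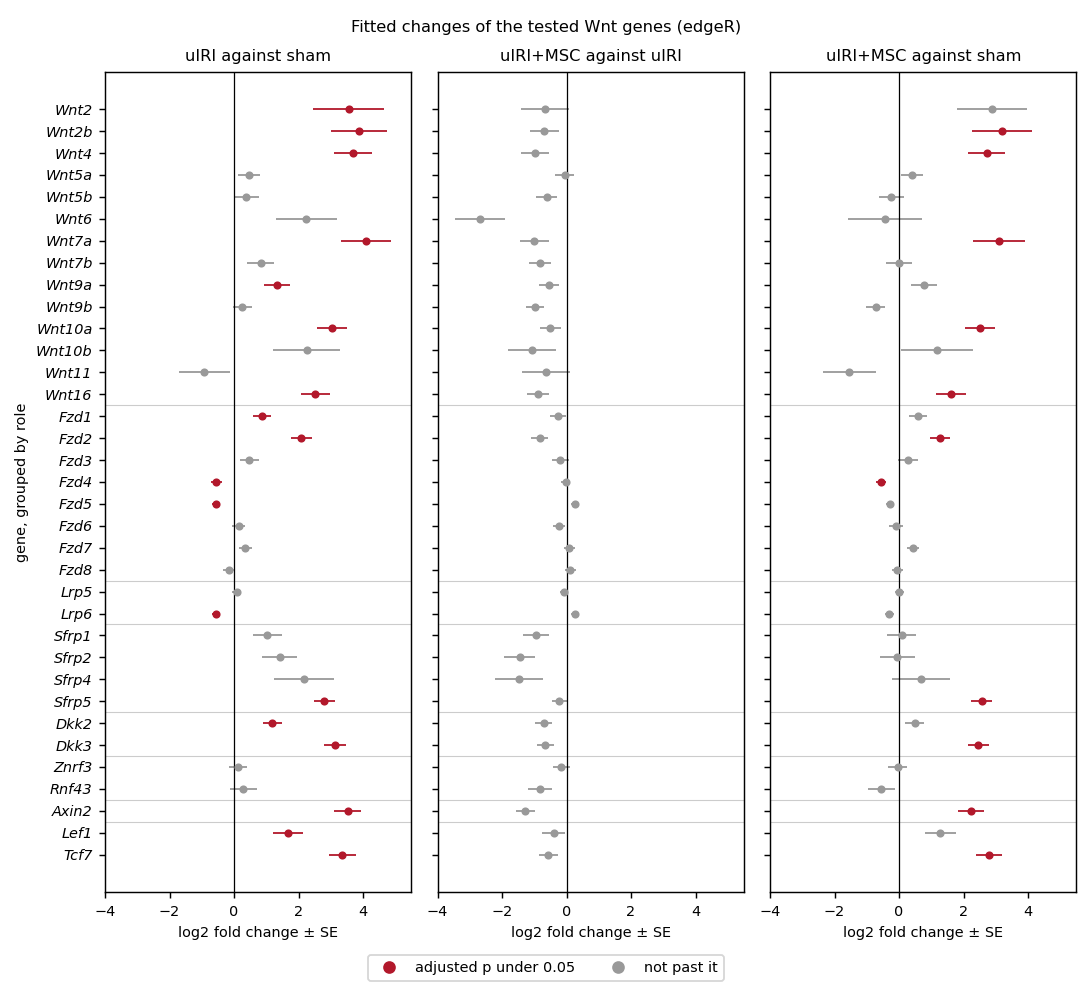
Points are log2 fold changes from the edgeR fit and lines their SE for the 35 tested Wnt genes, in uIRI against sham (left), uIRI+MSC against uIRI (middle) and uIRI+MSC against sham (right). Red marks an adjusted p under 0.05, and the fitted values of Wnt2b and Wnt7a against sham depend on the prior count, since sham held 1 and 2 counts. Red points number 18, 0 and 11 from left to right, and in the middle panel 31 of 35 points lie below 0.

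In uIRI+MSC against sham, which asks what still differed after transplantation, 10 of the 35 genes rose (28.6%) and 1 fell (2.86%), where 22.1% of all tested genes were higher, 20.3% lower and 42.4% called in either direction. Without sham 2 the calls among the 35 numbered 7. The median was 0.43, beside 0.03 over all tested genes, and the libraries did not overlap in 18 of 35 genes (64.2% of all tested genes). The sham libraries are those of the first comparison, so the values are given side by side and not as separate evidence. Axin2 stood at 2.24 ± 0.40 in uIRI+MSC against sham (SE, adjusted p = 0.00284 by edgeR) and at 3.52 in uIRI against sham. Tcf7 stood at 2.79 and 3.36, Dkk3 at 2.46 and 3.13, and Sfrp5 at 2.56 and 2.80. Of these, Tcf7 was 3.56 in uIRI+MSC against sham without sham 2.

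Among ligands and receptors that rose in uIRI+MSC against sham, Wnt10a stood at 2.52, Wnt4 at 2.72, Wnt16 at 1.62 and Fzd2 at 1.26, beside 3.03, 3.70, 2.52 and 2.09 in uIRI against sham. Leaving out sham 1 or sham 2 took Wnt10a to 1.87 or 3.95. The ratio to sham was 8.71 for Wnt7a (exact 95% counting interval 2.26 to 74.3) and 10.2 for Wnt2b (1.66 to 419). Fzd4 fell by 0.57, and by 0.55 in uIRI. Several of these calls were lost when 1 library was left out, which for sham leaves only 1. Those of Wnt4 (2.30) and Fzd2 (1.04) were lost without sham 1, that of Wnt7a without sham 2, that of Wnt16 without uIRI+MSC 2 (1.36) or either sham library (1.77 and 1.54), that of Wnt2b without uIRI+MSC 1 or sham 2, and that of Fzd4 without uIRI+MSC 1 (-0.50), uIRI+MSC 2 (-0.48) or either sham library (-0.59 and -0.47). Wnt2b was also lost with DESeq2 and Wnt16 with limma-voom (1.53). With library size alone Fzd4 was at -0.06. DESeq2 called 2 of the 35 lower in uIRI+MSC against sham, Fzd4 (-0.59) and Lrp6 (-0.33), beside 22.8% of all tested genes. Genes that had risen in uIRI but did not pass in uIRI+MSC against sham included Lef1 (1.28 ± 0.47), Wnt2 (2.89 ± 1.09), Wnt9a (0.77 ± 0.40), Fzd1 (0.59 ± 0.28) and Dkk2 (0.48 ± 0.29, SE), with adjusted p of 0.0575 to 0.216 by edgeR. For Sfrp1, Sfrp2 and Wnt7b the uIRI+MSC and sham libraries overlapped, with differences of 0.08 ± 0.44, -0.06 ± 0.54 and -0.00 ± 0.40 (SE).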

How the data were processed

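Per the labels, mRNA was isolated from total RNA, fragmented, copied into cDNA and joined to adapters. The deposited table gives, per the file headers, a raw read count and an FPKM value for each gene and library, both made by the authors. The build is GRCm38, and the submitters' processing notes list, with no roles, the programs HISAT2 2.0.4 and Bowtie2 2.2.6, StringTie 1.3.3b, edgeR 3.2.0, SAMtools 1.9 and FastQC 0.10.1. How reads were counted, with which annotation and strand setting, is not stated. FPKM per count of a gene, corrected for depth, was the same in all libraries to within 0.00054% over 9632 genes with at least 100 counts throughout.

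Counts were tested with edgeR 4.0.16 under R 4.3.3 (filterByExpr with a minimum count of 10, TMM, estimateDisp, glmQLFit with legacy=TRUE, glmQLFTest) on all 8 libraries in 1 fit with 5 residual degrees of freedom. The Benjamini-Hochberg adjustment covered all 16576 tested genes, with a threshold of 0.05. The SE is the size of the log2 change over the square root of F. Levels are the deposited FPKM times total count over TMM-scaled library size. Folds against a group with 1 to 3 counts are ratios with exact 95% counting intervals, and against 0 counts lower bounds with 3 counts over the group. The fit was tested on simulated data. Alternatives were DESeq2 1.42.0, limma-voom (limma 3.58.1), median-of-ratios factors, library size alone, no filter, at least 50 counts in 2 libraries, only the groups compared, a replicate block, and leaving out each library. Where that leaves sham with 1 library, that sample is taken to vary as the other groups do.

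Values in every library are given for genes past the threshold in a comparison or with a group mean of at least 1 FPKM. Of the other pathway genes, up to 4 per role with the smallest p in uIRI against sham are named. The genes and lists were chosen with earlier results of these data known. Promoter sequences are from RefSeq on GRCm38.p6, and overlaps of exons from GENCODE on GRCm38. Plots used matplotlib 3.10.9 and Python 3.11.15.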

Additional observations from a re-analysis of the deposited data

How the results depend on the processing

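With library size alone, 28 of the 35 genes were called in uIRI against sham, 28 higher and 0 lower, and 18 in uIRI+MSC against sham, 18 higher and 0 lower. Under that scaling the differences of Fzd4, Fzd5, Fzd8, Lrp6 and Gsk3a in uIRI against sham changed sign, to 0.11, 0.10, 0.49, 0.09 and 0.22, as the median of all genes moved to 0.73. Limma-voom put Wnt11 at 0.03 in uIRI against sham. DESeq2 called 4 of the 35 genes in uIRI+MSC against uIRI, 4 of them lower, and 1364 of all genes, and 2 of the 35 lower in uIRI+MSC against sham. The cause was not tested. Median-of-ratios factors moved no call of the genes listed. Leaving out 1 library, the calls among the 35 genes ran from 12 to 20 in uIRI against sham (10 to 17 higher, 1 to 3 lower), stayed at 0 in uIRI+MSC against uIRI and ran from 7 to 12 in uIRI+MSC against sham (7 to 11 higher, 0 to 2 lower), with 12 in the first reached without sham 1 and 7 in the last without sham 2. Over all genes they ran from 6386 to 9863, from 0 to 8 and from 3938 to 6914, with 3938 reached without sham 1. In the same runs the difference in uIRI against sham changed sign for Wnt5b (-0.05 to 0.69), Wnt9b (-0.09 to 0.77), Wnt11 (-1.81 to 2.18), Fzd6 (-0.05 to 0.41), Lrp5 (-0.00 to 0.20) and Znrf3 (-0.11 to 0.44). Correlations of the deviations between same-numbered libraries of different groups ran from -0.209 to 0.111. Those between differently numbered ones ran from -0.201 to 0.212. With so few libraries per group, and sham 1 and 2 mirroring each other by construction, this check cannot decide whether the numbers pair them. The replicate block gave 18, 0 and 10 calls among the 35 genes and 7959, 0 and 5753 among all genes, the call lost among the 35 being Wnt2b in uIRI+MSC against sham (3.05), and put Znrf3 at -0.08. Counting directions was added after the data were seen, and 27 to 33 of the genes tested were below 0 in uIRI+MSC against uIRI under every alternative run. With 2 sham libraries and low counts, differences of genes such as Wnt2b, Wnt6, Wnt7a, Wnt10b and Lef1 are poorly bounded.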
